A study of Mus musculus with 4 samples.

Results

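Chromatin accessibility at 10 radial glia and neural stem cell genes (Sox2, Sox9, Nes, Vim, Fabp7, Slc1a3, Gfap, Hopx, Aldoc and Nr2e1) was examined in P0 mouse hippocampi by ATAC-seq, an assay in which Tn5 transposase inserts adapters into open chromatin. The genes were taken by name from a list, 10 of 21938 protein-coding genes, and a promoter peak was one whose summit lay within 2 kb of an annotated transcription start site (TSS). The 4 libraries were 2 of cKO hippocampi, labelled Kdm2bEmx1-delta-CxxC, and 2 of Ctrl hippocampi, labelled Kdm2bfl/+ or Kdm2bfl/fl with no genotype given for the single library, all from postnatal day 0. Emx1-Cre, active in the lineage of the dorsal telencephalon, deleted in cKO mice the exon for the CxxC zinc finger by which KDM2B binds CpG islands, so cells of other lineages in the tissue kept the floxed allele. Peak names in the 2 Ctrl lists carry different prefixes that may stand for these 2 genotypes, so the Ctrl libraries may differ in genotype, and the prefixes were not used. The labels name neural progenitor cells as source, whereas the titles and the protocol name hippocampus. Nothing in the labels says whether the libraries of a group came from separate animals, so p-values measure only the spread between libraries.

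Radial glia are the stem cells of the developing brain, and in the hippocampus they give rise to granule and pyramidal neurons, to astrocytes and to the stem cells that persist in the dentate gyrus. Sox2, Sox9 and Nr2e1 encode transcription factors that keep neural stem cells undifferentiated or set their glial fate, and Hopx encodes an atypical homeodomain protein found in dentate stem cells and their precursors. Nes, Vim and Gfap encode intermediate filaments of radial glia and astrocytes. Fabp7 encodes a brain fatty acid-binding protein, Slc1a3 the glutamate transporter GLAST and Aldoc a glycolytic aldolase of astrocytes. An open promoter or enhancer is a region where nucleosomes leave DNA accessible to such factors, and it is not by itself a measure of transcription.

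The 4 lists differed in length and make-up before any gene was considered. They held 7037 to 46389 peaks, and the shortest list, that of Ctrl replicate 2, came from the library with the largest depth recovered from the lists, about 29.6 M fragments (M, mega) against 14.6 to 19.4 M in the others. In that list 60.6% of peaks were at least 50% repeat-masked, against 5.37% to 14.7% in the others. None of the 10 genes had a peak in it, at the promoter or within 50 kb of the gene, and 61.6% of all protein-coding genes likewise had none there. Each comparison of cKO with Ctrl at these genes therefore set both cKO libraries against Ctrl replicate 1 and a list without values. Kdm2b itself had a promoter peak in the same 3 libraries and none in Ctrl replicate 2, and peaks at its promoter do not check the deleted exon.

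Promoter peaks were found at 8 of the 10 genes in cKO replicate 1, at 9 in cKO replicate 2, at 8 in Ctrl replicate 1 and at 0 in Ctrl replicate 2. The share of all protein-coding genes with a promoter peak was 40.3%, 55.9%, 58.0% and 8.27% in the same order. The cKO mean was 8.5 ± 0.707 genes (SD, n = 2) and the Ctrl mean 4 ± 5.66 (SD, n = 2), a difference of 4.5 that shrank to 0.5 without Ctrl replicate 2. CpG-rich promoters made up 7 of the 10 (Sox2, Sox9, Nes, Vim, Slc1a3, Hopx and Nr2e1), beside 58.9% of protein-coding genes, where a CpG-rich promoter held a 500-base stretch with at least 55% GC and an observed over expected CpG ratio of at least 0.65. Such promoters carried a peak in 63.6% of cases in cKO replicate 1, 85.3% in cKO replicate 2, 87.6% in Ctrl replicate 1 and 13.5% in Ctrl replicate 2, against 6.75%, 13.7%, 15.6% and 0.854% for all other promoters. The 3 genes without one were Fabp7, Gfap and Aldoc, and Aldoc was the only one of the 10 with no promoter peak in any list.

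Promoter stretches of Vim, Nes and Aldoc are shown because they span what the lists held, namely the strongest peak of the 10 promoters, a peak seen only in cKO lists, and no peak. Each is the 250 bases before the outermost annotated 5′ boundary of the gene, on the gene's own strand (plus for all 3), in GRCm38 (mm10), at chr2:13573677-13573926 for Vim, chr3:87970828-87971077 for Nes and chr11:78322718-78322967 for Aldoc. Capitals mark GGGCGG (an SP/KLF motif), the letters of the CCAAT box and TATAAA (the TATA box), read on both strands.

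Vim: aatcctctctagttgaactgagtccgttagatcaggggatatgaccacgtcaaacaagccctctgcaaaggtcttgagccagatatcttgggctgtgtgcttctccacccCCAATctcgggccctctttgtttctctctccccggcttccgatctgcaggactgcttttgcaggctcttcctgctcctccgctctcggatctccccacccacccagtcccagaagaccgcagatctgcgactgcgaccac

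Nes: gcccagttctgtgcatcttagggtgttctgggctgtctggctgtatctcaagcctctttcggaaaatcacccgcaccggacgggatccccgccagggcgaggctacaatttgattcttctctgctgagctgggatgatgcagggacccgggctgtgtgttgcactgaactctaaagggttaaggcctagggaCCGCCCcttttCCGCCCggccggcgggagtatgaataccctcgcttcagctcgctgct

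Aldoc: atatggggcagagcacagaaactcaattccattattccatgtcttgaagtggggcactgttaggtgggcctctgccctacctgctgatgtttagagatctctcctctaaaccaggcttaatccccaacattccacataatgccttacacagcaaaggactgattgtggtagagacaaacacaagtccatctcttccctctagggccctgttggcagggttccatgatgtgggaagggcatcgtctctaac

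GGGCGG occurred at 2 places in the Nes stretch, CCAAT once in the Vim stretch, and none of the 3 motifs in the Aldoc stretch. These stretches end at the GENCODE boundary, and the 300 bases at the RefSeq starts held other matches. There Vim had 2 CCAAT and 1 TATAAA, and Nes 2 GGGCGG. Aldoc had 1 GGGCGG at its RefSeq start at base 78323073, and none of the 3 motifs at that at base 78324198. Among the stretches of all 21938 protein-coding genes, 39.0% held GGGCGG, 36.0% held CCAAT and 11.5% held TATAAA, and among the 10 genes the counts were 3, 6 and 1. The peak of cKO replicate 2 at Nes began at base 87970840 of chromosome 3 and that of cKO replicate 1 at base 87971030, so the GGGCGG match at 87971031 to 87971036 lay inside both. A match is a description of the letters, not a bound site.

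Peak strength was compared between genes by the promoter percentile, which gives the percent of protein-coding genes that a gene exceeded by its strongest promoter peak within a library and is 0 without a peak. A gene with a peak could not lie below 59.7 for cKO replicate 1, 44.1 for cKO replicate 2 or 42.0 for Ctrl replicate 1, because the lists had different lengths. Vim, at chr2:13573927-13582826 (ENSMUSG00000026728.9), had the strongest promoter peak of the 10 in each of the 3 libraries, at percentiles of 92.0 for cKO replicate 1, 88.2 for cKO replicate 2 and 87.0 for Ctrl replicate 1. Its summit depths were 45, 74 and 77 fragments, which ranked 2203 of 21404, 2793 of 44535 and 2857 of 46389 peaks. All 3 libraries thus placed it in the upper part of their lists. The scaled depth, which is the fragment depth at a summit over the mean depth of the library, was 21.7 for cKO replicate 1, 41.0 for cKO replicate 2 and 47.5 for Ctrl replicate 1. Ctrl replicate 1 was therefore lowest by percentile and highest by scaled depth.

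**Figure D1:**
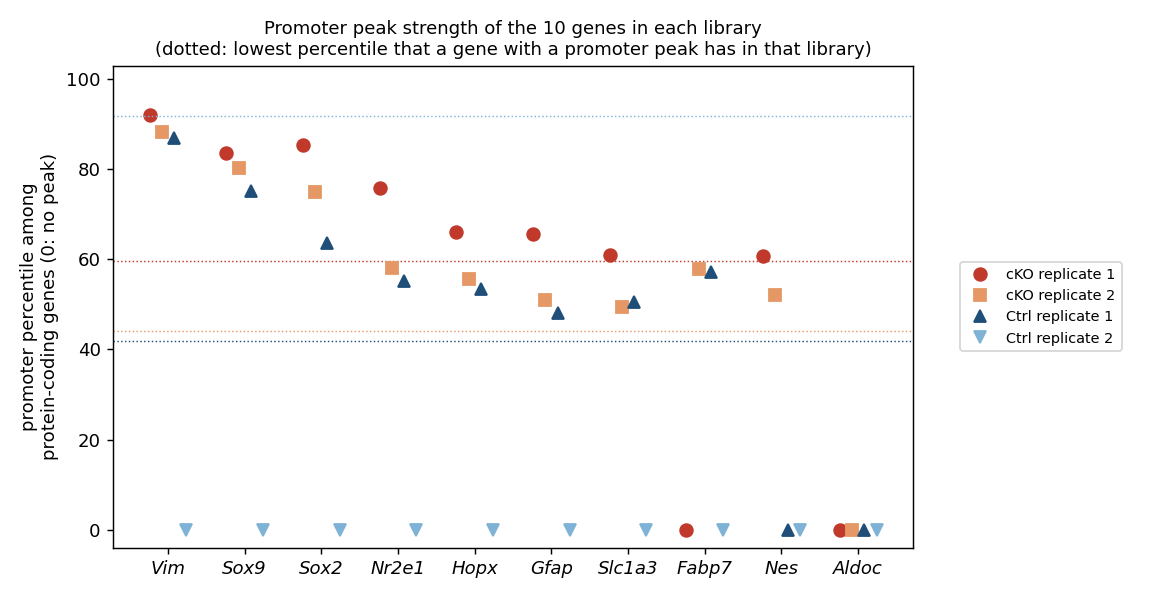
Promoter percentile (vertical axis, percent of protein-coding genes with a weaker promoter peak, 0 for no peak) of each of the 10 genes (horizontal axis) in each of the 4 libraries (1 symbol each), with dotted lines at the lower bound for genes with a peak. Vim lies highest in the 3 libraries with values, Nes has values in the cKO libraries alone, and all 10 symbols of Ctrl replicate 2 lie at 0.

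The stem cell transcription factors followed. Sox9 (chr11:112782224-112787760) stood at 83.7 for cKO replicate 1, 80.2 for cKO replicate 2 and 75.1 for Ctrl replicate 1, on 31, 59 and 52 fragments, with its summits 55 to 124 bp upstream of the TSS. Its values lay below those of Vim in each of the 3 libraries. Sox2 (chr3:34650405-34652461) stood at 85.5, 75.0 and 63.6 in the same order, on 29, 45 and 33 fragments, and its range overlapped that of Sox9. Among genes with a peak in all 3 libraries, its Ctrl value was the farthest below its cKO values, by 16.6 percentile points on average. The Sox2 summits lay 437 to 486 bp upstream of the GENCODE start of the gene, and 27 to 76 bp upstream of its RefSeq start.

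Nr2e1 (chr10:42561963-42583632), which encodes the orphan nuclear receptor TLX, stood at 75.8 for cKO replicate 1, 58.0 for cKO replicate 2 and 55.3 for Ctrl replicate 1. It rested on 24, 27 and 26 fragments, with scaled depths of 11.6, 14.9 and 16.0 in the same order. cKO replicate 1 was therefore highest by percentile and lowest by scaled depth. Its TSS is divergent with that of Ostm1, and a peak there cannot be assigned to either gene. Hopx (chr5:77086988-77115121) had peaks at both of its promoters, about 20 kb apart, in each of the 3 libraries. At the upstream promoter they rested on 12 fragments for cKO replicate 1, 19 for cKO replicate 2 and 18 for Ctrl replicate 1, and at the downstream promoter on 16, 20 and 15. Taking the stronger of the pair, the percentiles were 66.1, 55.7 and 53.4, and by p-value, which sets the percentile, the downstream promoter was the stronger one in cKO replicate 1 alone.

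Nes (chr3:87971078-87980451), the gene of the filament protein nestin, had a promoter peak in both cKO libraries and in neither Ctrl library. The peak rested on 12 fragments in cKO replicate 1 and 19 in cKO replicate 2, and stood at percentiles of 60.7 and 52.0 beside 0 in both Ctrl libraries. It was a weak peak in both, ranked 20002 of 21404 and 28390 of 44535. The scaled depth was 5.78 and 10.5. In the list of Ctrl replicate 1, 5.55 was the 5th percentile of scaled depth over all peaks, and the depth of that library at the Nes promoter was not measured, since the lists give depth at peaks only. The difference of means was 56.4 percentile points, with an exact two-sided permutation p of 0.333, which is the smallest that 2 against 2 libraries allow, and an adjusted p of 1 (Benjamini-Hochberg over 13196 genes). With peaks of −log10 q of at least 5 the peak of cKO replicate 1 was lost, and the difference was 26.0. With Ctrl replicate 2 left out and the other lists cut to equal length the peak of cKO replicate 2 was lost (difference 30.3), and with all 4 lists cut to the shortest both were lost (difference 0). No list held a peak in the second intron of Nes, where an enhancer active in neural progenitors is known.

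Gfap (chr11:102887336-102900912), the filament of astrocytes and adult stem cells, had no peak within 1 kb of a TSS in any list. Its promoter peak lay 1392 to 1572 bp upstream of the nearest TSS in all 3 libraries, on 16 fragments for cKO replicate 1, 21 for cKO replicate 2 and 19 for Ctrl replicate 1, at percentiles of 65.6, 51.0 and 48.1. The 3 values were near the floor of their lists. cKO replicate 2 alone had another peak, at chr11:102900932-102901192 on 20 fragments, just upstream of the annotated 5′ boundary of the gene. Its summit lay 3.8 kb upstream of the nearest TSS, so it was counted as distal and not as a promoter peak.

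Fabp7 (chr10:57784881-57788450) had a promoter peak in cKO replicate 2, on 20 fragments, and in Ctrl replicate 1, on 26, and none in cKO replicate 1 or Ctrl replicate 2. The percentiles of 57.9 and 57.2 differed by less than 1 point, and the lists that held the peak were 1 of each group. Slc1a3 (chr15:8634124-8710764) stood at 60.9 for cKO replicate 1, 49.4 for cKO replicate 2 and 50.6 for Ctrl replicate 1, on 12, 16 and 20 fragments. Ctrl replicate 1 lay between the cKO libraries there. The value of cKO replicate 1 lay near its lower bound of 59.7. The summits did not coincide. In cKO replicate 2 the peak used was the stronger of 2, with its summit 760 bp downstream of the nearest TSS. The summit lay 79 bp downstream in cKO replicate 1 and 36 bp upstream in Ctrl replicate 1. Aldoc (chr11:78322968-78327781) stood at 0 in all 4 libraries, and no peak lay in the gene body. The nearest peak downstream, held by 3 lists with 18 fragments for cKO replicate 1, 35 for cKO replicate 2 and 42 for Ctrl replicate 1, had its summit 10 bp from the TSS of the neighbouring Pigs.

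The order of the 7 promoters with a peak in 3 lists was read within each of the 3 libraries with values, since the lower bound differed between lists. In each of them Vim was highest, followed by Sox9 and Sox2, then Nr2e1, then Hopx, and then Gfap and Slc1a3. Sox9 and Sox2 changed places between libraries, as did Gfap and Slc1a3. Pooled over the 3 libraries, the range of Vim did not overlap that of Sox9, and from Sox9 down to Slc1a3 the ranges of neighbours overlapped.

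In the comparison of groups, 7 of the 9 genes with a promoter peak in any library had a higher percentile in both cKO libraries than in both Ctrl libraries (Sox2, Sox9, Nes, Vim, Gfap, Hopx and Nr2e1). Over the 13196 protein-coding genes tested, 20.5% were higher in this sense and 2.8% lower. None of the 10 could be lower, because Ctrl replicate 2 was at 0 for each, and Nes, which was tested only through its cKO peaks, could only be higher, so nothing is read from this count. Against Ctrl replicate 1 alone the background was 23.8% higher and 36.6% lower, and it includes genes with no peak in cKO replicate 1. Of the 7 of these genes with a promoter peak in all 3 libraries, 6 were higher in both cKO libraries than in Ctrl replicate 1 (Slc1a3 was not) and 0 lower, beside 35.6% and 28.1% of the 8734 genes of this kind. Differences of the cKO mean from Ctrl replicate 1 were 3.14 points for Vim, 6.85 for Sox9, 7.49 for Hopx, 10.3 for Gfap, 11.6 for Nr2e1 and 16.6 for Sox2, and with Ctrl replicate 2 at 0 they were 34.2 (Hopx) to 48.4 (Sox2).

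By scaled depth most genes with a promoter peak in the 3 libraries lay lower in both cKO libraries than in Ctrl replicate 1, so these values give no direction particular to the 10 genes. Of the 7 genes with a peak in 3 libraries, 0 were higher in both cKO libraries than in Ctrl replicate 1 and 5 were lower (Vim, Slc1a3, Gfap, Hopx and Nr2e1), beside 0.149% and 82.7% of the 8734 genes. Nr2e1 had scaled depths of 11.6 for cKO replicate 1, 14.9 for cKO replicate 2 and 16.0 for Ctrl replicate 1. Gfap had 7.71, 11.6 and 11.7 in the same order. Slc1a3 was counted by its strongest peak, which in cKO replicate 2 had its summit 760 bp from the nearest TSS and not beside it. Hopx was counted by its strongest peak, which lay at different promoters, and its upstream promoter had 5.78, 10.5 and 11.1 while its downstream promoter had 7.71, 11.1 and 9.25, where Ctrl replicate 1 lay between the cKO libraries. At Sox2 (14.0, 24.9 and 20.3) and Sox9 (14.9, 32.7 and 32.1) Ctrl replicate 1 lay between the cKO libraries. cKO replicate 1 was lowest at all 7.

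The count by percentile depended on the length of the lists. When each list was cut to its strongest peaks, as many as the smallest list held, 3 of the 10 genes kept a promoter peak for cKO replicate 1, 2 for cKO replicate 2 and 2 for Ctrl replicate 1, and the number higher in both cKO libraries was 2 (Sox9 and Vim). When Ctrl replicate 2 was left out and the other lists were cut to the length of that of cKO replicate 1, the number was 4. The shares of all protein-coding genes given above are those of the uncut lists. Nothing particular to the 10 genes is therefore read from the counts under these cuts. The exact two-sided permutation p was 0.333 for the 7 genes named above, 0.667 for Slc1a3 and 1 for Fabp7, and 0 of 13196 genes had an unadjusted p under 0.05, since the design does not allow it. In bulk tissue, fewer nuclei of a cell type and less open chromatin per nucleus cannot be told apart.

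Beyond the promoters, the gene bodies and 50 kb on either side held 22 peaks in cKO replicate 1, 48 in cKO replicate 2, 47 in Ctrl replicate 1 and 0 in Ctrl replicate 2. The group means were 35 ± 18.4 for cKO and 23.5 ± 33.2 for Ctrl (SD, n = 2 each), and the difference of 11.5 turned to -12 without Ctrl replicate 2. The 2 lists of similar length, those of cKO replicate 2 and Ctrl replicate 1, differed by 1 peak. Peak density was highest at Slc1a3, with 3.40, 6.23 and 5.66 peaks per 100 kb in cKO replicate 1, cKO replicate 2 and Ctrl replicate 1, and 90.8%, 94.3% and 91.4% of protein-coding genes had a lower density. It was lowest at Nr2e1, with 0.822, 1.64 and 1.64, where 35.8%, 34.8% and 32.3% of genes lay lower. The median of the 10 was 1.87, 4.11 and 4.49 beside 0.985, 2.32 and 2.48 for all protein-coding genes. By the exact two-sided permutation test over libraries, the p-values of single genes lay at 0.667 or 1, with an adjusted p of 1 for each.

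**Figure D2:**
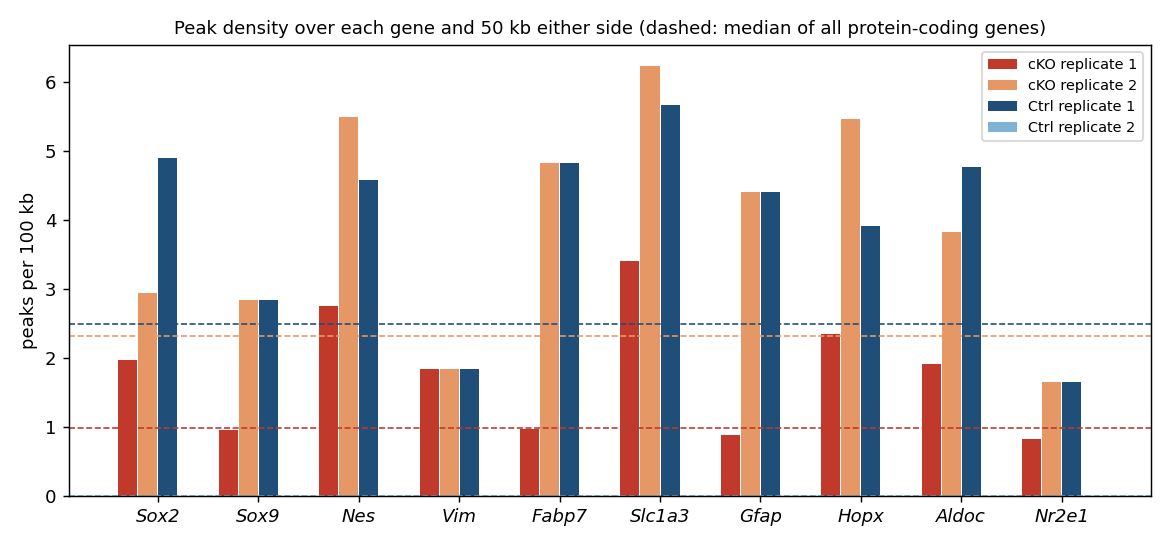
Peaks per 100 kb (vertical axis) over each gene and 50 kb either side (horizontal axis), with 1 bar per library and dashed lines at the median of all protein-coding genes in that library. Slc1a3 has the highest bars and Nr2e1 the lowest, and Ctrl replicate 2 has no bar because its value is 0 at each gene.

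Merging peaks that overlapped by at least 1 bp gave 53 regions at the 10 loci, of which 10 lay at promoters of the 10 genes, 16 at promoters of other genes and 27 distal to any TSS. No region was held by all 4 lists, beside 5.56% of the 58652 regions of the genome. Both cKO lists and Ctrl replicate 1 held 21 of the 53 regions (25.9% of genome regions), and cKO replicate 2 and Ctrl replicate 1 held a further 19 (27.1%). Of the remainder, 7 were in Ctrl replicate 1 alone (18.8%) and 5 in cKO replicate 2 alone (14.1%). The Nes promoter was the 1 region of 53 that both cKO lists held and the Ctrl lists lacked, beside 0.692% of genome regions. The reverse pattern could not occur, because Ctrl replicate 2 held no peak at these loci.

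**Figure D3:**
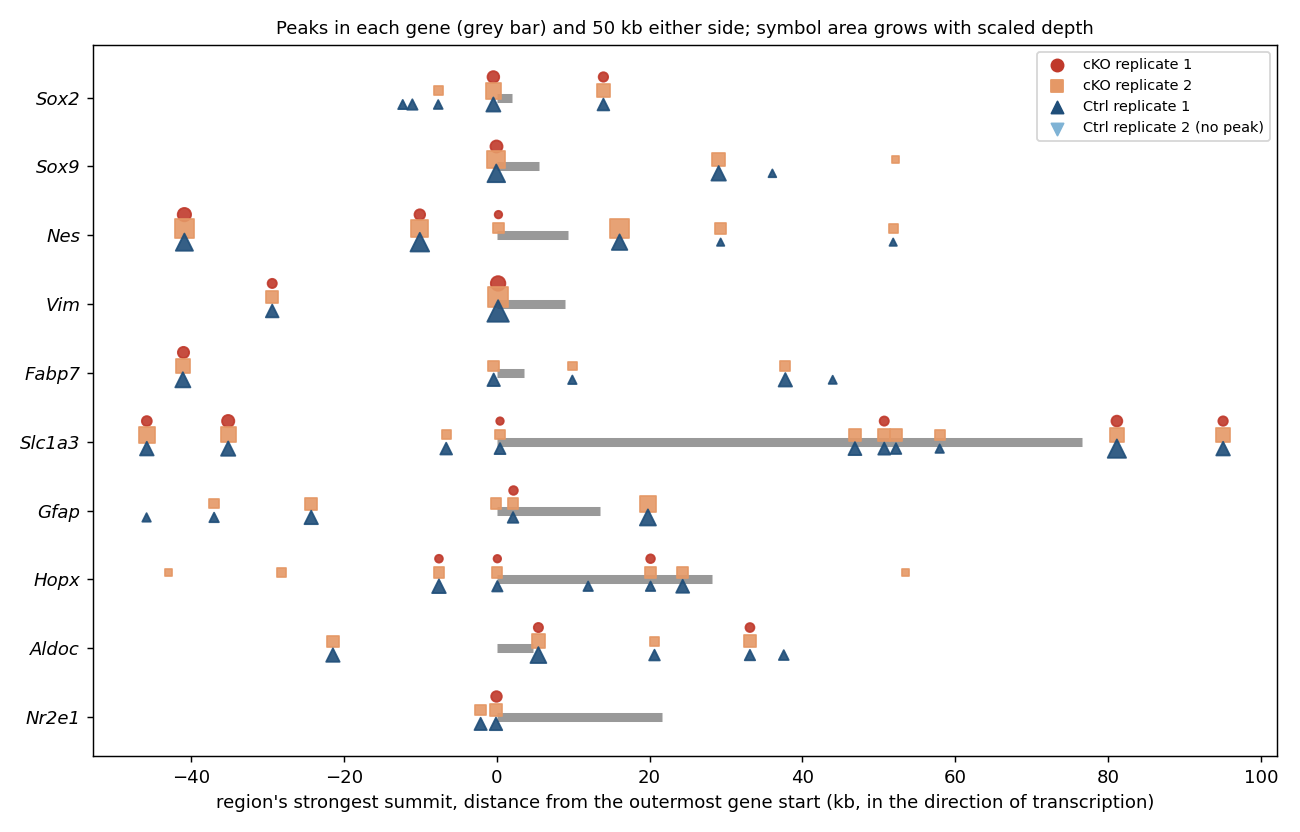
Distance of each region's strongest summit from the outermost annotated start of the gene (horizontal axis, kb, in the direction of transcription) for the 10 genes (rows, grey bar for the gene), with 1 symbol per library that held the region and its area growing with scaled depth. Slc1a3 has 10 regions, the Nes promoter has symbols of the cKO libraries alone, and Ctrl replicate 2 has no symbol.

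Slc1a3 had 10 regions, 9 of them distal, and 6 were held by 3 lists. The region with the best mean rank lay 35.1 kb upstream of the TSS at chr15:8745651-8746429, with 32 fragments for cKO replicate 1, 40 for cKO replicate 2 and 34 for Ctrl replicate 1. Its scaled depths were 15.4, 22.1 and 21.0, above those of the Slc1a3 promoter (5.78, 8.86 and 12.3) in each library. A further region 45.8 kb upstream had scaled depths of 10.1, 24.9 and 19.1, and one 80.8 kb downstream of the TSS, past the end of the gene, had 12.1, 18.3 and 34.5. The cKO libraries lay on both sides of Ctrl replicate 1 at the first 2 of these regions and below it at the third. The intron of the gene held 4 distal regions between 46.5 and 57.6 kb from the TSS, 1 of them in 3 lists.

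At the Fabp7 locus the region with the best mean rank lay 41.1 kb upstream, at chr10:57743633-57744498, on 27, 35 and 38 fragments in cKO replicate 1, cKO replicate 2 and Ctrl replicate 1. It was held by cKO replicate 1, which lacked the Fabp7 promoter peak. At Nes, a distal region 10.1 kb upstream (chr3:87960678-87961148) had scaled depths of 11.6, 28.8 and 35.8, and Ctrl replicate 1 was the highest there although it lacked the promoter peak. A region 16.0 kb downstream of the Nes TSS (chr3:87986981-87988016) was held by cKO replicate 2, on 66 fragments, and Ctrl replicate 1, on 40. The best mean rank at the Nes locus belonged to the promoter of Rrnad1, 40.9 kb upstream, on 38, 63 and 49 fragments. At Gfap, Hopx and Aldoc it likewise belonged to promoters of other genes (Ccdc103, Gm15831 and Pigs), and at Vim, Sox9, Sox2 and Nr2e1 to the promoter of the gene itself. The mean ran over lists of different length. Over cKO replicate 2 and Ctrl replicate 1 alone, the lead passed at Slc1a3 to the region 45.8 kb upstream, at Nes to the distal region 10.1 kb upstream and at Hopx to an intronic region 4.47 kb from the nearest Hopx TSS (chr5:77090090-77090969, on 25 and 28 fragments), and it stayed at the other 7 loci.

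Sequences around the summits are shown for the Gfap promoter peak, which lies away from the TSS, and for the distal regions of best mean rank at Slc1a3 and Fabp7. Each is 300 bases around the strongest summit in GRCm38 (mm10), on the gene's own strand, at chr11:102898622-102898921 (minus) for Gfap, chr15:8745756-8746055 (minus) for Slc1a3 and chr10:57743657-57743956 (plus) for Fabp7. Capitals mark ACAANG (SOX), TTGGC (NFI), TTCNNNGAA (STAT) and ATGCNAAT (POU), read on both strands.

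Gfap: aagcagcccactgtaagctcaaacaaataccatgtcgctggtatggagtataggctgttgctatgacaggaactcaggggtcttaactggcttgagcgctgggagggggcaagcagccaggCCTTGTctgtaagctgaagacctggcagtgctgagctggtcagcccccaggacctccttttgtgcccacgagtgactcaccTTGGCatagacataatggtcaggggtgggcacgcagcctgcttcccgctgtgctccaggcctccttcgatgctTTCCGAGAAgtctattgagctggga

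Slc1a3: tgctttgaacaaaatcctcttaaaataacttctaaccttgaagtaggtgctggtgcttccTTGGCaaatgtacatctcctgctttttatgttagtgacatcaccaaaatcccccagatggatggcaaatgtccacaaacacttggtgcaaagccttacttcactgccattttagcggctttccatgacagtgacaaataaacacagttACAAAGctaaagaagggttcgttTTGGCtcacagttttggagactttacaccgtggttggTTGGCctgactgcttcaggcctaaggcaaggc

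Fabp7: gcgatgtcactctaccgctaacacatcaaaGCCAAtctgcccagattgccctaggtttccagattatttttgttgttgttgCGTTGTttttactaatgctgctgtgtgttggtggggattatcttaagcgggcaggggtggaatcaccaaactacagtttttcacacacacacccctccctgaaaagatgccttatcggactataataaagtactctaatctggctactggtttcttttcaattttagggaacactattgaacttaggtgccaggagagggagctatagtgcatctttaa

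The Gfap stretch held 1 SOX, 1 NFI and 1 STAT match, the Slc1a3 stretch 1 SOX and 3 NFI matches, and the Fabp7 stretch 1 SOX and 1 NFI match. Among 41895 distal regions of the genome with the same length, 48.6% held a SOX match, 62.5% an NFI match, 9.64% a STAT match and 6.13% a POU match. Of the 27 distal regions at the loci, 16, 18, 1 and 3 did. The Gfap stretch lies at a promoter peak and is not among these distal regions, so their shares are no background for it. The letters are short and common, and the counts are a description only. Other motifs were searched in the 27 distal regions as well. TGGGAA (RBPJ) was in 7, CAGCTG (E-box) in 6, TAATTA (homeodomain) in 4 and CTTTGAN (TCF/LEF) in 5. The shares of distal regions of the genome were 28.1%, 24.7%, 14.9% and 17.5%. CCAAT was in 10, TATAAA in 1 and GGGCGG in 3, beside 44.0%, 13.7% and 7.71% of distal regions of the genome.

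**Figure D4:**
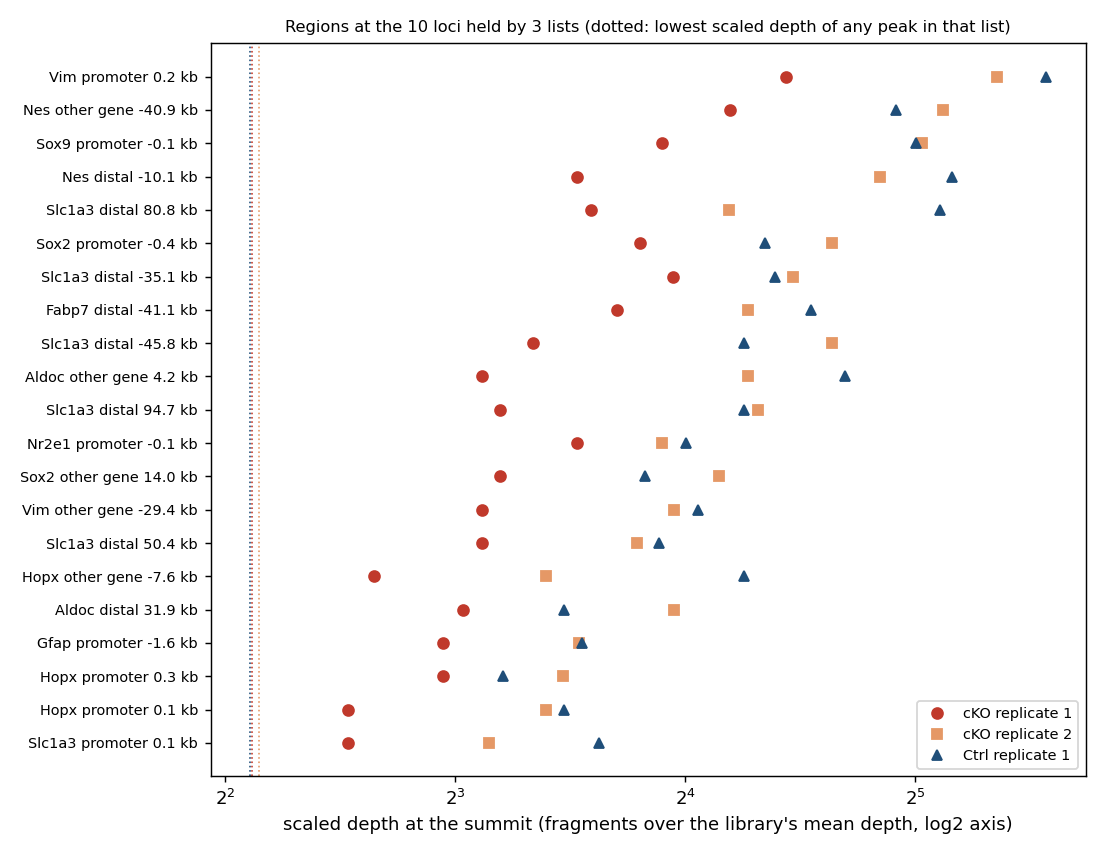
Scaled depth at the summit (horizontal axis, log2 scale, fragments over the mean depth of the library) of the 21 regions at the 10 loci that 3 lists held (rows, with the gene, the kind of region and the distance in kb from its nearest TSS), 1 symbol per library, with dotted lines at the lowest scaled depth of any peak in each list. cKO replicate 1 lies lowest in all 21 rows, and cKO replicate 2 lies above Ctrl replicate 1 in 9.

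At the 21 regions held by 3 lists, scaled depth was lowest in cKO replicate 1 in all 21, as it was in 97.7% of the 15172 genome regions held by the same lists. cKO replicate 2 was above Ctrl replicate 1 in 9 of the 21. Over the 40 regions that these 2 libraries both held, cKO replicate 2 was higher in 17, beside 38.8% of 31071 genome regions. The median ratio was 0.942 (range 0.529 to 2.29), beside 0.924 over the genome. The median ratio of cKO replicate 1 to Ctrl replicate 1 was 0.530 at the 21 regions and 0.440 over the genome.

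Other radial glia and astroglia genes (32 genes, among them Pax6, Lhx2, Hes1, Nfix, Slc1a2 and Aqp4) had promoter peaks at 22 in cKO replicate 1, 28 in cKO replicate 2, 28 in Ctrl replicate 1 and 0 in Ctrl replicate 2. Their median percentiles were 66.7, 56.9 and 53.5 in the first 3 libraries, close to 65.8, 56.8 and 54.3 for the 10 genes. Of the 28 with a peak in any library, 15 were higher in both cKO libraries than in both Ctrl libraries, beside 20.5% of all genes tested, and none could be lower because Ctrl replicate 2 was at 0. Against Ctrl replicate 1 alone, 15 were higher and 1 lower, beside 23.8% and 36.6%. Of the 22 with a peak in all 3 libraries, 15 were higher and 0 lower, beside 35.6% and 28.1%. Nfix, a factor of glial differentiation, had the highest cKO values (93.8 and 89.0, with 86.2 in Ctrl replicate 1), and Pax6, a factor of dorsal progenitors, stood at 91.3, 81.5 and 87.3. The list had no promoter peak for Sox3, Notch1, S100b or Aldh1l1 in any library.

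Markers of other cell types were read in the same way. Neuronal markers had promoter peaks at 2 of 6 genes for cKO replicate 1, 5 for cKO replicate 2 and 4 for Ctrl replicate 1, with percentiles of 0 to 78.5, 0 to 81.8 and 0 to 81.3. The counts were 0, 1 and 2 of 4 for the oligodendrocyte lineage, 2, 0 and 2 of 4 for endothelium and 1, 2 and 3 of 5 for interneurons from outside the Emx1 lineage. The markers of microglia (Cx3cr1, C1qa, Aif1 and Csf1r) and of other tissues (Alb, Ins2, Myh6 and Krt5) had none in any library. Ctrl replicate 2 had none for any marker on these lists. Promoter peaks in both cKO lists, without which a marker could not be higher in both, were found at 3 markers only (Tubb3, Neurod6 and Gad1), and none of the 3 was higher in both cKO libraries than in Ctrl replicate 1. Against that library 1 neuronal (Prox1), 1 oligodendrocyte-lineage (Olig1) and 1 interneuron marker (Dlx1) were lower in both, beside 36.6% of all genes tested. None of these markers had a promoter peak in cKO replicate 1. The part of cell composition in the values of the 10 genes was not tested.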

How the data were processed

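ATAC-seq libraries were made from nuclei of P0 hippocampi. By the methods and labels, the authors cut reads short with Cutadapt, used Bowtie2 for alignment to mm10, discarded blacklisted, mitochondrial and duplicate reads, shifted alignments for Tn5 and called peaks with MACS2 (2.2.7.1) on each library alone, without a control. Short trimmed reads place less reliably in repeats, and separate calling gives each list its own threshold. The deposited lists give a score (not used), a fold enrichment (ratio of fragment depth to background), p-values and q-values (both as −log10) and a summit offset, all computed by the authors.

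Peaks were assigned to TSSs of the basic GENCODE M21 set, and positions are 1-based in GRCm38. Fragment depth was recovered from fold and p-value, and a whole number fitted within 0.01 for at least 99.986% of peaks in each list. The lowest background was taken as mean depth, and the shortest peak as fragment length. Groups were compared by the exact two-sided permutation test over 6 assignments of libraries with Benjamini-Hochberg adjustment. Simulated data were used to check the recovery of fragment depth and the calling of separated groups. Of the permutation test they checked only the smallest p, which the design fixes, and the adjustment was not checked. Alternatives covered window, overlap, TSS set, list length, q-value, flank, repeats, ranking, libraries and pairing. The 10 genes and all lists were chosen with earlier results of these data known. All 10 genes are named, with the region of best mean rank at each locus and each region held by both lists of 1 group only. Promoters of 9 of the 10 genes are in the RefSeq table used (Sox9 is not). Replicate numbers did not pair the libraries by any label. Values were computed in Python with numpy and pandas.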

Additional observations from a re-analysis of the deposited data

How the results depend on the processing

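With 2 libraries per group no setting could give an exact permutation p below 0.333, so calls could not be gained or lost. Leaving out Aldoc, which had no difference, and the replicate block, which cannot move a mean, the difference for single genes kept its direction in 104 of 117 cases, moved to 0 in 7 and reversed in 6. Fabp7, at 0.365, ranged from -28.6 (without cKO replicate 2) to 29.3 (without cKO replicate 1) with 1 library left out, and reversed to -28.2 without Ctrl replicate 2, to -2.43 when ranked by scaled depth, to -7.63 when genes lacking a peak took their mid-rank, and to -28.2 with 3 lists of the length of that of cKO replicate 1. Slc1a3 reversed to -0.609 with −log10 q of at least 5.

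The number of genes higher in both cKO libraries, 7 by the percentile, was 8 with the comprehensive TSS set, where Slc1a3 joined them (difference 33.2, exact permutation p 0.333), and 5 to 8 under the other window, overlap, TSS, q-value and left-out-library settings. It fell to 2 with equal-size lists and to 4 with the 3 lists of equal length, and it was 1 with scaled depth in place of the percentile (Nes, whose missing Ctrl values were set to 0, and 0 of the 7 genes with values in 3 libraries). Peaks at the loci differed by 11.5 with all libraries, by -12 (without Ctrl replicate 2) to 35 (without Ctrl replicate 1) with 1 library left out, by -1.5 without cKO replicate 2, and by -2 with the 3 lists of equal length. The 3-list setting, scaled depth in place of the percentile and the comprehensive TSS set were chosen after seeing the data. The cause of these changes was not tested beyond the lists and libraries that each setting removes.

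With the replicate block, pairing equal numbers, the differences stayed at 4.5 genes with a promoter peak and 11.5 peaks, and the exact sign-flip p was 0.5 at the smallest. Deviations of replicate 1 correlated across genes with r of 0.053 between groups, and no label pairs the libraries.

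The weakest listed peaks had 7 to 12 fragments at their summits, and the lists give no depth outside peaks. A gene without a peak is one without a called peak, not one without open chromatin.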
